A study of Mus musculus with 3 samples.

Results

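The 10 genes described here are endothelial markers and receptors of muscle capillaries: Kdr, Flt1, Tek, Tie1, Pecam1, Cdh5, Vwf, Eng, Aqp1 and Ednrb. They were chosen by name, with earlier results of these data known. All 10 were measured among 18193 genes with a probe set of 1 gene symbol. A probe set reads 1 or more transcripts through several short probes. The 10 genes had 17 of the 34945 probe sets with 1 gene symbol. The study asked whether iron given with a high-fat diet changes energy metabolism in mice. Gastrocnemius muscle was taken from male C57BL/6J mice on diet D12450B with 10% kcal fat (Control), on diet D12492 with 60% kcal fat (HF), or on the same high-fat diet to which sodium ferrous citrate had been added at 0.023% by weight (HF + SFC). The diets began at 6 weeks of age and lasted 15 weeks by the series' design text, whereas the sample labels state an age of 21 months for each group. By the study's description cDNA of all animals of a group was mixed, while the labels describe labelled cRNA made from total RNA, and the number of animals in a mix is not given for the arrays. Each group thus had 1 array and there were 3 arrays in all, with no group that received iron with the Control diet. No difference could therefore be checked against replicates, no error can be given, and no statistical test was run.

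Blood capillaries are tubes of endothelial cells that deliver oxygen, fatty acids and hormones to muscle fibres. Vascular endothelial growth factor (VEGF) acts on endothelium through the receptor tyrosine kinases KDR (VEGFR2), which carries most of the growth and permeability signal, and FLT1 (VEGFR1), which binds the same ligand tightly and also exists as a secreted form that traps it. Angiopoietins act through the related kinase TEK (TIE2), while TIE1 binds no angiopoietin firmly on its own and modulates TEK. PECAM1 and CDH5 (VE-cadherin) hold neighbouring endothelial cells together, VWF is the adhesive protein that endothelium and platelets release at a wound, and endoglin (ENG) is a co-receptor for BMP and TGF-beta ligands. AQP1 is a water channel of capillary endothelium and red blood cells, and EDNRB is a receptor for endothelins that on endothelium leads to nitric oxide release.

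The promoter windows of the 4 receptor kinases, which were lower in HF on their brightest probe sets, and of Eng, which had nearly the same signal on the Control and HF arrays, are shown to let the start regions be read side by side. Each window is 300 bases, from 250 before to 50 after the start of the gene, taken from RefSeq on GRCm38.p6, and of the 10 genes 7 had one. Capitals mark GGAA or its reverse complement TTCC, the core that ETS factors of endothelium such as ERG and FLI1 recognise.
Kdr promoter window, chr5:75978406-75978705, - strand: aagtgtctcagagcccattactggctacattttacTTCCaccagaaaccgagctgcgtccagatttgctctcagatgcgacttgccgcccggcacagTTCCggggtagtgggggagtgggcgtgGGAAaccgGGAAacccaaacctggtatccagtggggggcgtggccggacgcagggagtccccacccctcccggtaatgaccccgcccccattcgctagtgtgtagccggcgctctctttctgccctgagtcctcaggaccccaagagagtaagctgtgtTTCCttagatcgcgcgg
Flt1 promoter window, chr5:147725962-147726261, - strand: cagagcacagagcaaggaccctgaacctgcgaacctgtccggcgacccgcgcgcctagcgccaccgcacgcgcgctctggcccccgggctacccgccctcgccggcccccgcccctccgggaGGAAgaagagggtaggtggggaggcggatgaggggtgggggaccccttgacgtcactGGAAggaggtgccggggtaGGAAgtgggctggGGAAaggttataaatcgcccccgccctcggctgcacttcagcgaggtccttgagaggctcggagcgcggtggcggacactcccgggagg
Tie1 promoter window, chr4:118489800-118490099, - strand: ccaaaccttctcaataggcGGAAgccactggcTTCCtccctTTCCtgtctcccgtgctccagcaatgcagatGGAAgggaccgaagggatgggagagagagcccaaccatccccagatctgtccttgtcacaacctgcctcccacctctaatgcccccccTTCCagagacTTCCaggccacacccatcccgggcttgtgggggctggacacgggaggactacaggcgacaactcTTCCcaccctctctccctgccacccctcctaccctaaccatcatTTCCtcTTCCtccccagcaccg
Tek promoter window, chr4:94739039-94739338, + strand: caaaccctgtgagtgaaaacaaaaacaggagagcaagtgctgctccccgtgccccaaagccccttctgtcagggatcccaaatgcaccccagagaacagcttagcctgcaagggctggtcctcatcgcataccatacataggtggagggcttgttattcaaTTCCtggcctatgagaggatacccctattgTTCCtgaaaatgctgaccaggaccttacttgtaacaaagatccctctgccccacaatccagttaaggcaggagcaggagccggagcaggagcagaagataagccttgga
Eng promoter window, chr2:32646345-32646644, + strand: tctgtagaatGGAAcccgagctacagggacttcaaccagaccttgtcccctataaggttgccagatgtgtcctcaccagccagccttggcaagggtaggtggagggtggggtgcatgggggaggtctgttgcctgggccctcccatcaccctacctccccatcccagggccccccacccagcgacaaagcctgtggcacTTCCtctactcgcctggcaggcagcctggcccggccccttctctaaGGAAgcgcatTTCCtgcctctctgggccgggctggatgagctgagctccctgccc

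GGAA was found on either strand 9 times in the Tie1 window, 5 times in Kdr and in Aqp1, 4 times in Flt1 and in Eng, 3 times in Ednrb and 2 times in Tek, against a median of 3 in 32851 windows. It occurred in 96.0% of all windows, so its presence sets none of these genes apart. The longer forms CAGGAAG and ACCGGAAG, which contain GGAA, were in none of the 7 windows and in 13.3% and 2.30% of all windows. The GC box core GGGCGG was in 3 of the 7 windows (Aqp1, Flt1 and Kdr) and in 35.7% of all, and TATAAA was in the Flt1 window only and in 13.6% of all. These are matches of letters and not measured binding sites.

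The signals were MAS5 intensities on a linear scale, with array medians of 63.63 (Control), 67.39 (HF) and 68.03 (HF + SFC). Values are those of the brightest probe set of a gene unless another is named. All 17 probe sets of the 10 genes were above the array median on all 3 arrays, and the brightest probe sets of all 10 genes were above the median signal of genes, 160. RNA integrity, read as 3' over 5' signal of the beta-actin control probe sets, stood at 1.09 (Control), 1.52 (HF) and 1.15 (HF + SFC), while the Gapdh values were 0.842, 0.832 and 0.820. The higher beta-actin value fell on the HF array, and its part in the results was not tested. As a guide to measurement spread, the log2 ratios of HF to Control from the brightest and the next probe set of a gene differed with an SD of 0.23 among 1489 genes where that next probe set was above the 75th percentile of signal, and 0.34 among 2227 genes where it lay between the median and that percentile. The SDs for HF + SFC to HF were 0.21 and 0.32. This is a spread between probe sets and not between animals.

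In HF against Control, 7 of the 10 genes were lower and 3 higher (median log2 ratio -0.21). Over all 18193 genes 49.3% were lower and the median was 0.01, and over the 9096 genes above the median signal 54.3% were lower and the median was -0.02. The 4 receptor tyrosine kinases were all lower in HF, at 0.616 to 0.914 of the Control signal, while Pecam1, Cdh5, Vwf and Eng lay between 0.996 and 1.11. In bulk muscle, fewer endothelial cells and less RNA per endothelial cell cannot be told apart. Tie1 was the only gene at least 1.5-fold lower on its brightest probe set and none was 1.5-fold higher. Of all genes 12.2% were 1.5-fold lower and 17.0% higher on the brightest probe set, and of genes above the median signal 1.87% were lower and 2.67% higher.

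**Figure D1:**
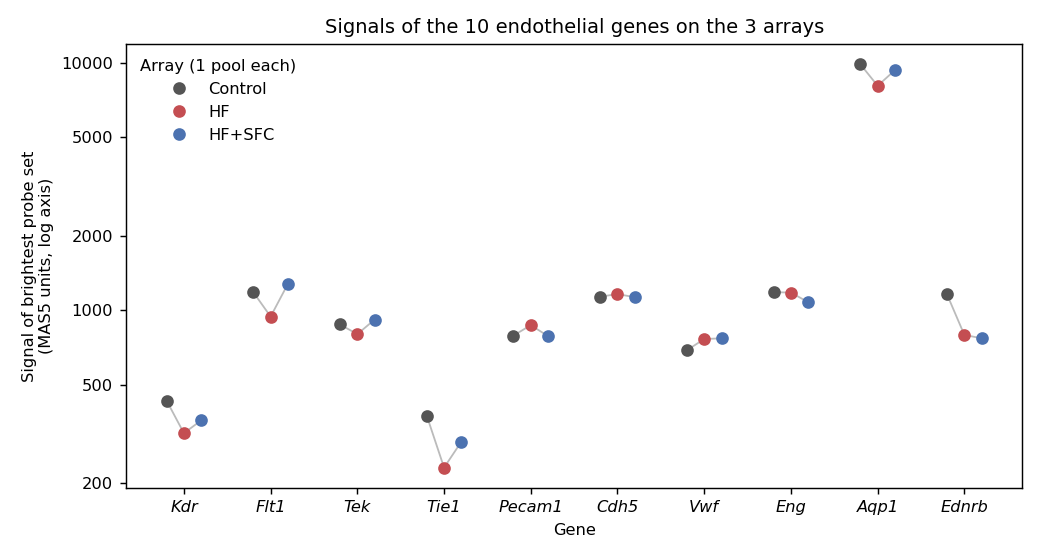
Signal of the brightest probe set (MAS5 units, log axis) of each of the 10 genes on the Control, HF and HF + SFC arrays, 1 pooled sample each, with grey lines joining the 3 values of a gene. The 4 receptor kinases and Aqp1 had their lowest signal on the HF array, while Pecam1, Cdh5, Vwf and Eng were nearly level.

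In HF + SFC against HF, 6 of the 10 genes were higher and 4 lower (median log2 ratio 0.09), whereas 48.6% of all genes and 47.4% of genes above the median signal were lower. The 4 receptor kinases were all higher, at 1.13 to 1.36 of the HF signal, and Pecam1, Cdh5 and Eng were lower, at 0.903 to 0.971. None of the 10 genes reached 1.5-fold in either direction, against 13.7% of all genes higher and 13.5% lower, and 0.945% and 1.43% of genes above the median signal. None did so on any probe set either, against 26.4% of all genes higher and 26.0% lower. In HF + SFC against Control, 7 genes were lower and 3 higher (median log2 ratio -0.04), against 47.6% of all genes and 50.8% of genes above the median signal lower. Ednrb alone was 1.5-fold lower, also when any probe set was counted, and no gene was higher. Of all genes 12.4% were lower and 16.5% higher at this threshold, of genes above the median signal 1.78% and 1.91%, and on any probe set 24.4% and 30.1%. The 3 comparisons share arrays, so that a deviation of the HF array enters both the first and the second. The HF array gave the lowest of the 3 signals for 5 of the 10 genes and for 37.7% of genes above the median signal.

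**Figure D2:**
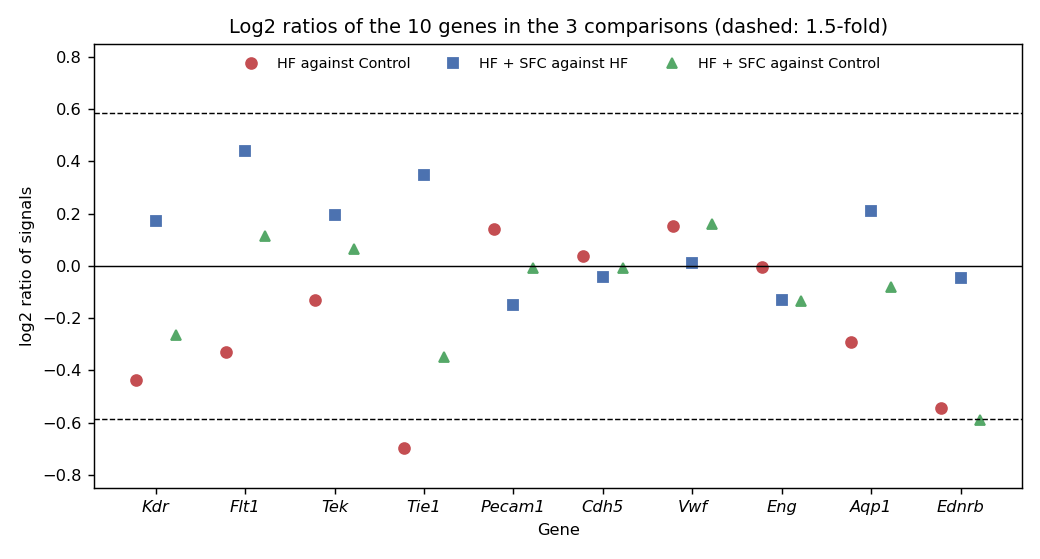
Log2 ratio of the brightest probe set of each gene for HF against Control (circles), HF + SFC against HF (squares) and HF + SFC against Control (triangles), with dashed lines at 1.5-fold and 1 array per group. Tie1 at -0.70 in HF against Control and Ednrb at -0.59 in HF + SFC against Control are the points beyond the lines.

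Kdr, the main signalling receptor for VEGF, had a signal of 432 (Control), 319 (HF) and 360 (HF + SFC) on its only probe set. The Control array was highest and the HF + SFC array lay between the others. Its ratio was 0.738 in HF against Control, lower than that of all but 4.4% of genes above the median signal, and 1.13 in HF + SFC against HF. Flt1, the VEGF receptor that also acts as a trap, had 1185, 944 and 1282 on its brightest probe set (1451756_at), with ratios of 0.797 and 1.36. The second of the 4 Flt1 probe sets (1419300_at) read 1096, 728 and 833, with ratios of 0.664 and 1.14. These 2 probe sets were both lowest on the HF array, but the first placed HF + SFC above Control and the second placed it below. The third (1440926_at) read 534, 553 and 598. The dimmest (1454037_a_at) read 197, 247 and 232. On these last 2 probe sets Flt1 was not lower in HF, at 1.04 and 1.25 of the Control signal. Probe sets of 1 gene can bind different transcripts, and which Flt1 transcript each of them reads was not determined here.

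Of 9 VEGF ligands, other receptors and co-receptors, 5 were higher and 4 lower in HF relative to Control (median log2 ratio 0.05), and 3 were higher and 6 lower in HF + SFC against HF (-0.14). Vegfa, the main ligand of KDR, had 1960 (Control), 1718 (HF) and 1402 (HF + SFC), and its dimmer probe set was nearly level at 430, 451 and 418. Vegfb, a ligand of FLT1 and not of KDR, had 2615, 2703 and 2796. Pgf, the placental growth factor that likewise binds FLT1 and not KDR, had 68.9, 179 and 124 on its only probe set. Its ratio of 2.60 in HF against Control rests on a Control signal close to the array median of 63.63 and is imprecise. Of the ligands of lymphatic vessels, Vegfc had 161, 216 and 161 and Vegfd had 368, 301 and 274. The ligands thus had no common order over the 3 arrays. The co-receptor Nrp1 had 1829, 1975 and 1859, whereas 2 other probe sets of it were lowest in HF, at 1036 and 888. Nrp2, a co-receptor mostly of lymphatic and venous endothelium, had 222, 133 and 225, but its next probe sets were higher in HF than in Control, at ratios of 1.29 and 1.31. The highest and lowest genes of the list above the median signal were Vegfc (1.34) and Nrp2 (0.598) in HF against Control, and Nrp2 (1.69) and the lymphatic VEGF receptor Flt4 (0.641) in HF + SFC against HF.

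Tek, the receptor of angiopoietins, had a signal of 877 (Control), 802 (HF) and 919 (HF + SFC) on its only probe set. The arrays lay within 1.15-fold of each other, the smallest range of the 4 kinases. Its ratio was 0.914 in HF against Control, with 29.9% of genes above the median signal below it, and 1.15 in HF + SFC against HF. Tie1, its partner kinase, had 376, 232 and 295, also on 1 probe set. The signal was highest in Control and lowest in HF, and HF + SFC lay between them. Its ratio of 0.616 in HF against Control was the lowest of the 10 genes, with 0.9% of genes above the median signal below it, and the ratio was 1.27 in HF + SFC against HF and 0.784 in HF + SFC against Control.

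Of 5 ligands and partners of these kinases, 2 gave a higher and 3 a lower signal on the HF array than on the Control array. In HF + SFC against HF, 4 were higher and 1 lower. The medians were -0.02 and 0.23 on the log2 scale. The first of these medians is the value of Angpt4, a dim gene at 31.7 (Control), 31.3 (HF) and 28.0 (HF + SFC). Counting only the 3 genes above the median signal, 2 were higher and 1 lower in HF, with a median of 0.295. All 3 were higher in HF + SFC against HF, with a median of 0.23. Angpt1, the agonist that pericytes and smooth muscle supply, had 448 (Control), 582 (HF) and 681 (HF + SFC). Angpt2, which endothelium releases and which can oppose it, had 175, 124 and 151, with a second probe set below the array median on all arrays. Ptprb, the endothelial phosphatase that acts on TEK, had 2148, 1790 and 2117, and its second probe set was level at 1251, 1334 and 1367. Svep1, an extracellular protein that binds TIE1, had 286, 351 and 371. Angpt1 was thus higher in HF while Tek and Tie1 were lower, and Angpt2 and the brightest Ptprb probe set were lowest in HF as the kinases were. The extreme genes above the median signal were Angpt1 (1.30) and Ptprb (0.833) in HF against Control, and Ptprb (1.18) and Svep1 (1.06) in HF + SFC against HF.

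Pecam1, the junction protein by which endothelium is most often recognised, had a signal of 791 (Control), 872 (HF) and 787 (HF + SFC) on its only probe set. Cdh5, the cadherin of endothelial junctions, had 1137, 1165 and 1131. For both genes the 3 arrays were nearly level, with HF highest. The dimmer Cdh5 probe set had 108, 146 and 113, ratios of 1.35 in HF against Control and 0.774 in HF + SFC against HF. It also read highest in HF. Vwf had 690, 766 and 772, and was lowest in Control. Its ratio was 1.11 in HF against Control and 1.01 in HF + SFC against HF.

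Eng, the co-receptor of BMP and TGF-beta signalling, had 1186 (Control), 1181 (HF) and 1080 (HF + SFC). Its second probe set had 519, 592 and 538. The probe sets differed in HF against Control, with ratios of 0.996 and 1.14, and gave nearly the same ratio in HF + SFC against HF, 0.914 and 0.909. Of 13 partners of endoglin and effectors of the pathway, 7 were higher and 6 lower in HF (median log2 ratio 0.09), and 2 were higher and 11 lower in HF + SFC against HF (-0.06). The type I receptor Acvrl1 had 292, 310 and 249, and its dimmer probe set was lowest in HF, at 113, 99.5 and 110. The type II receptor Bmpr2 had 9155, 8894 and 9692, and its dimmer probe sets were higher in HF than in Control. In HF + SFC against HF the dimmer probe sets were lower, at 0.732 and 0.892, and the brightest was at 1.09. The extreme genes were the BMP-binding protein Bmper (239, 383 and 292), highest in HF against Control and lowest in HF + SFC against HF, the BMP target Id3 (915, 782 and 770), lowest in the former, and Bmpr2, highest in the latter.

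**Figure D3:**
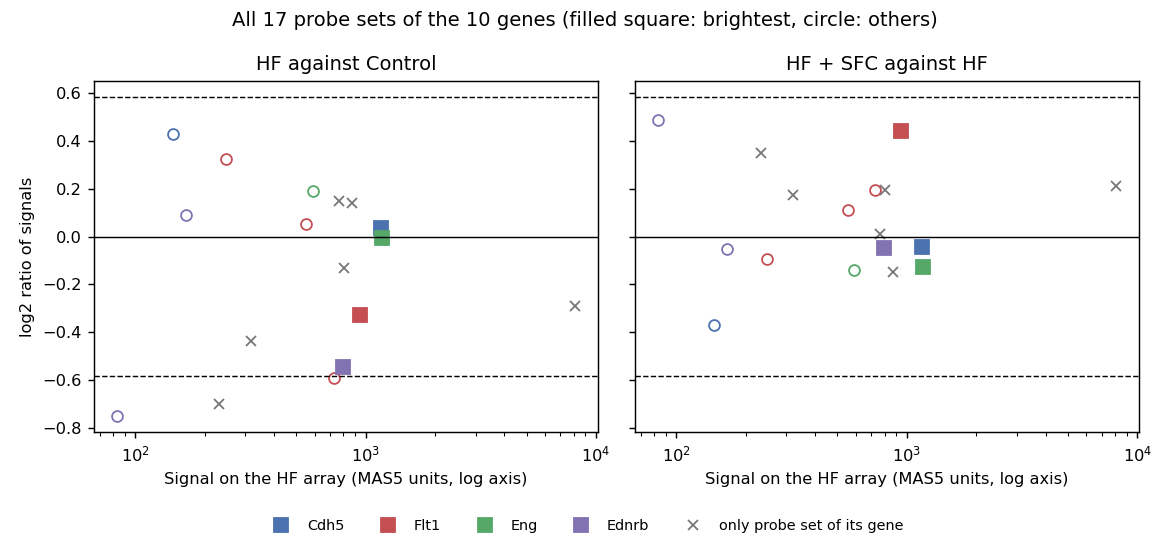
Log2 ratio (HF against Control at left, HF + SFC against HF at right) by HF array signal (MAS5 units, log axis) for all 17 probe sets; filled squares are the brightest probe set of genes with several, circles their other probe sets, crosses the only probe set of a gene, and dashed lines 1.5-fold. The other probe sets of Flt1 and Ednrb spread from below -0.58 to above 0 at left, and no probe set passes the lines at right.

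Aqp1, the water channel, had a signal of 9893 (Control), 8088 (HF) and 9359 (HF + SFC) on its only probe set. The HF array was lowest and HF + SFC lay just below Control. Its ratio was 0.818 in HF against Control, with 11.3% of genes above the median signal below it, and 1.16 in HF + SFC against HF. Red blood cells also carry AQP1, and the 5 measured genes of the red cell list were all below the median signal of genes, with a sum of 209 (Control), 205 (HF) and 215 (HF + SFC). Of these, 3 were higher and 2 lower in HF, and the same numbers held in HF + SFC against HF (median log2 ratios 0.18 and 0.10).

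Ednrb, the endothelin B receptor, had 1161 (Control), 797 (HF) and 771 (HF + SFC) on its brightest probe set (1437347_at). Control was highest and both HF groups were close together, unlike the 4 kinases and Aqp1, which were higher in HF + SFC against HF. The ratios were 0.686 in HF against Control, with 2.4% of genes above the median signal below it, 0.968 in HF + SFC against HF and 0.664 in HF + SFC against Control. The dimmest probe set (1423594_a_at) had 140, 83.2 and 117, lowest in HF at 0.594 of Control. The second (1426314_at) had 156, 166 and 160, nearly level. Counting any probe set, 3 of the 10 genes (Ednrb, Flt1 and Tie1) were 1.5-fold lower in HF than in Control, a share close to the 24.0% of all genes, and none was higher, against 30.5%.

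Of 6 measured genes of the endothelin system, 4 were higher and 2 lower in HF (median log2 ratio 0.52). In HF + SFC against HF, 1 was higher and 5 lower (-0.12). These medians include dim genes, such as Edn2 at 31.9 (Control), 69.7 (HF) and 16.5 (HF + SFC) and Kel at 18.0, 31.9 and 29.5. Over the 3 genes above the median signal, 1 was higher and 2 lower in both comparisons (-0.05 and -0.03). Edn1, the endothelin of endothelium, had 123, 143 and 130. Ece1, the enzyme that releases active endothelin, had 1649 (Control), 1062 (HF) and 1093 (HF + SFC) on the brightest of its probe sets, with a ratio of 0.644 in HF against Control, and its second probe set had 110, 168 and 129. The brightest Ece1 probe set thus had the same order as Ednrb in Control against the HF groups, and the dimmer one the opposite order. Edn3, a ligand that prefers EDNRB, had 150, 278 and 153 on its brightest probe set, while its other 3 were below the array median on every array. Among genes above the median signal, Edn3 had the highest ratio in HF against Control (1.86) and the lowest in HF + SFC against HF (0.552), and Ece1 the opposite ends at 0.644 and 1.03. Schwann cells and melanocytes can also carry EDNRB, and of 8 of their markers 6 were higher and 2 lower in HF relative to Control (median log2 ratio 0.21), with Mbp at 2083, 2618 and 2117, Pmp22 at 2844, 3370 and 2752 and Mal at 223, 276 and 237. In HF + SFC against HF, 2 were higher and 6 lower (-0.26). Their sum, most of it Pmp22 and Mbp, was 5565, 6696 and 5435. The defining marker Sox10 was highest in Control at 153, 115 and 130. Pmel was level between Control and HF at 92.4, 92.3 and 7.49, and Dct was highest in HF + SFC at 45.6, 46.1 and 62.6. These and Tyr (53.3, 60.0 and 25.3) were below the median signal of genes, and the part of these cells in the Ednrb signal was not tested.

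Each gene was also set against Pecam1 measured on the same arrays, a step chosen after the values were seen. Relative to Pecam1, HF against Control stood at 0.559 for Tie1, 0.623 for Ednrb, 0.670 for Kdr, 0.723 for Flt1, 0.742 for Aqp1 and 0.830 for Tek. Eng, Cdh5 and Vwf stood at 0.904, 0.930 and 1.01 on the same scale. In HF + SFC against HF it was 1.5 for Flt1, 1.41 for Tie1, 1.28 for Aqp1, 1.27 for Tek and 1.25 for Kdr, and between 1.01 and 1.12 for the other genes. This scaling moves every gene by the same factor, so the gaps between genes are those of the unscaled ratios.

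Most genes of the other endothelial and capillary lists were not lower in HF as the receptor kinases were. These lists also hold genes that other cells of muscle express, and the part of those cells was not tested. Of 118 measured genes in 10 lists of endothelial signalling, surface, transcription and transport, 76 were higher and 42 lower in HF relative to Control (median log2 ratio 0.10), and 44 were higher and 74 lower in HF + SFC against HF (-0.05). Past 1.5-fold, 11 were higher and 4 lower in HF, and 2 were higher and 4 lower in HF + SFC. Medians of lists are over all measured genes. Of these genes 100 were above the median signal, and of those 5 were 1.5-fold higher and 3 lower in HF against Control (5.0% and 3.0%, against 2.67% and 1.87% of all genes above the median signal). For HF + SFC against HF, 1 was higher and 2 were lower (1.0% and 2.0%, against 0.945% and 1.43%). Values of a gene are given in the order Control, HF and HF + SFC below, or for the 2 arrays compared.

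Of 23 other junction and surface proteins, 16 were higher and 7 lower in HF (median 0.11), and 11 were higher and 12 lower in HF + SFC against HF (-0.05). Cldn5, the claudin that seals endothelial junctions, had 601 (Control), 655 (HF) and 658 (HF + SFC). Cd34, a surface sialomucin also found on other progenitor cells, had 970, 1365 and 1038 and was the highest in HF against Control, while the junctional adhesion molecule F11r (371, 322 and 311) was lowest. In HF + SFC against HF the ends were Rasip1 (168 and 212) and Ecscr (398 and 297).

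Of 20 transcription factors, 13 were higher and 7 lower in HF (0.05), and 7 were higher and 13 lower in HF + SFC against HF (-0.02). Erg, an ETS factor that maintains endothelial identity, had 251, 268 and 248, and Fli1, its close relative, had 627, 813 and 738, so both were highest in HF. Ets1 was lowest in HF against Control (1202 and 1031), but its next probe set was level at 971 and 961. Fli1 was the highest there. In HF + SFC against HF, Ets2 (1464 and 1854) and Lmo2 (384 and 289) were the highest and lowest. The second Ets2 probe set was nearly level at 213 and 202.

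Notch receptors and ligands went both ways, with 7 of 10 genes higher in HF (0.21) and 6 of 10 higher in HF + SFC against HF (0.13). Notch4, the Notch receptor of endothelium, had 492 (Control), 316 (HF) and 394 (HF + SFC) on its brightest probe set, the same order as Tie1 and Kdr, while its other probe sets were too dim to compare. It had the lowest ratio of the list in HF against Control and the highest in HF + SFC against HF. The target gene Heyl (204, 298 and 325) was highest in HF against Control, although a second probe set was at 0.923. The ligand Jag2 (689 and 474) was lowest in HF + SFC against HF, but its second probe set was nearly level at 381 and 395.

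Of 12 genes of nitric oxide signalling and caveolae, 9 were higher and 3 lower in HF (0.17), and 3 were higher and 9 lower in HF + SFC (-0.12). Nos3, the endothelial nitric oxide synthase, had 343, 382 and 342. Ddah2, which removes an inhibitor of nitric oxide synthase, was highest in HF against Control (212 and 353), and Ddah1 lowest (375 and 332). Prkg1 (1588 and 1651) and the guanylate cyclase subunit Gucy1b1 (421 and 323) had the highest and lowest ratios of HF + SFC to HF. Of 9 genes of lipid transport at the capillary wall, 5 were higher in HF (0.09) and 3 in HF + SFC against HF (-0.003). The fatty acid binding protein Fabp5 (1367, 2095 and 1771) was highest in HF and lowest in HF + SFC against HF, and Lpl (31931, 27428 and 30257) was at the other end of both.

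Of 11 adhesion and coagulation genes, 8 were higher and 3 lower in HF (0.17), and 4 were higher and 7 lower in HF + SFC against HF (-0.12). Procr, the endothelial protein C receptor, was highest in HF against Control (408 and 673), and Nfkbia lowest (4595 and 4145). The ends in HF + SFC against HF were Procr (673 and 633) and Vcam1 (269 and 207), all 6 genes above the median signal being lower. Of 9 basement membrane genes, 7 were higher in HF (0.11) and 5 in HF + SFC against HF (0.05). Sparc (7975, 12554 and 10273) was highest in the former and lowest in the latter. Lamb1 (963 and 808) was lowest in the former and Hspg2 (714 and 973) highest in the latter. The next probe set of each went the other way, at 279 and 340 for Lamb1 and 813 and 779 for Hspg2. Lymphatic genes were higher in 4 of 6 cases in HF (0.11) and in 2 of 6 in HF + SFC (-0.02). Among those above the median signal, Lyve1 (196 and 225) and Reln (366 and 334) were the ends in HF, and Reln (334 and 393) and Pdpn (444 and 410) in HF + SFC.

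**Figure D4:**
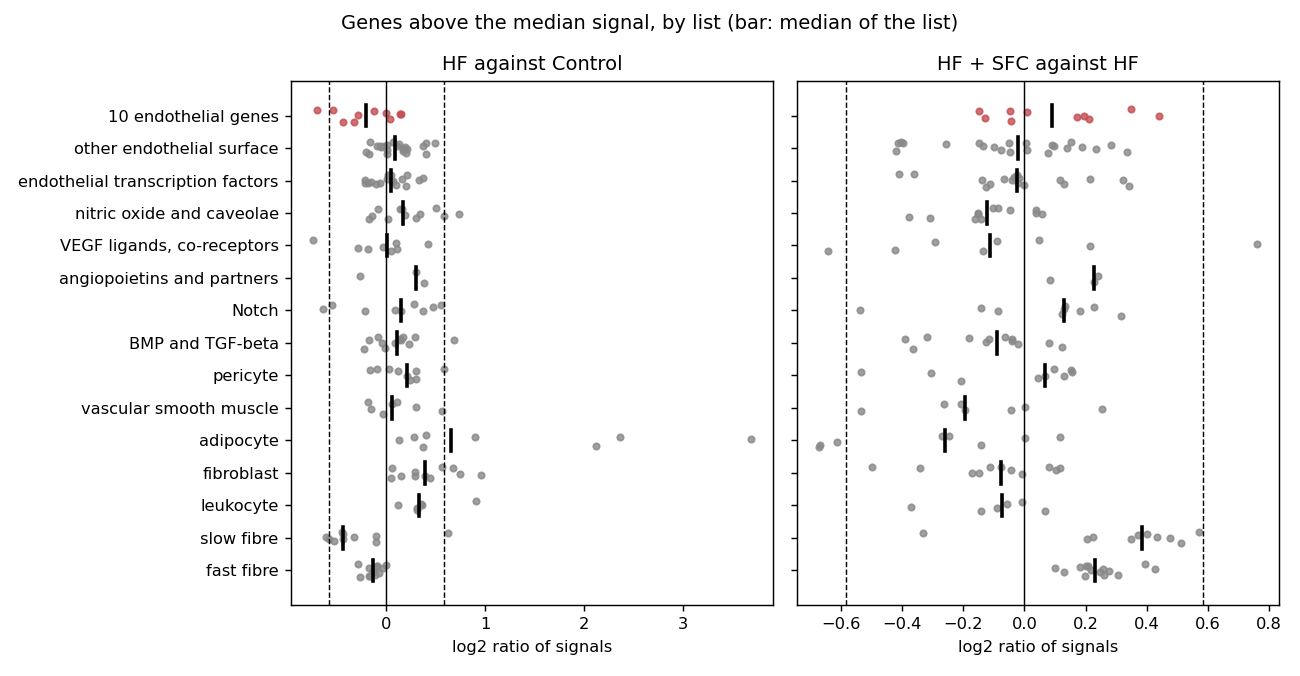
Log2 ratio of each gene above the median signal in 15 lists, for HF against Control (left) and HF + SFC against HF (right), with a bar at the median of the list and dashed lines at 1.5-fold; points are scattered vertically for visibility and the panels have different scales. At left the medians of the 10 endothelial genes (-0.21), the slow fibre list (-0.44, Myh2 included) and fast fibres (-0.13) lie below 0. At right the medians of the same lists (0.09, 0.39 and 0.23) lie above 0, as do those of angiopoietins and partners, Notch and pericytes.

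The muscle fibre lists were bright, with Tnnt3 at 61584 (Control), 57775 (HF) and 66676 (HF + SFC). Genes of the slow fibre list were lower in HF in 9 of 10 cases (median -0.44, from Tpm3 at 0.655 of Control to Casq2 at 1.54). They were higher in HF + SFC against HF in 9 of 10 (0.39, from Casq2 at 0.795 to Tnnc1 at 1.48). Their sum was 128140, 102036 and 127234. The brightest of the list, Myh2 (35478, 32879 and 38417), encodes the myosin of fast type IIa fibres. It is part of these counts, medians and sums, with ratios of 0.927 in HF against Control and 1.17 in HF + SFC against HF. All 14 fast fibre genes had lower signals in HF (-0.13), and all were above HF in HF + SFC (0.23), with Ckm and Myh1 at the ends of both, and a sum of 645424, 587558 and 694995. The receptor kinases and Aqp1 thus had their lowest signals on the array where the fibre genes were also lowest, and the part of fibre content in their ratios was not tested.

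Adipocyte genes were higher in HF in all 9 measured cases (0.41), with Lep at 45.8 (Control), 592 (HF) and 387 (HF + SFC), and lower in HF + SFC against HF in 7 of 9 (-0.27), where Cidec (689 and 432) and Retn (386 and 418) were the ends. Their sum was 54609, 65595 and 62325, most of it Car3 (47690, 51953 and 51978), which muscle also expresses and which was the lowest in HF against Control. Fibroblast genes were higher in HF in 11 of 11 cases (0.39, from Pdgfra at 1.03 to Col1a1 at 1.95) and lower in HF + SFC in 8 of 11 (-0.08, from Col1a1 at 0.709 to Dcn at 1.08), with sums of 36844, 47273 and 45970. Leukocyte genes were higher in HF in 11 of 14 (0.33) and lower in HF + SFC in 8 of 14 (-0.03), with sums of 3065, 3906 and 3734, and C1qb (242, 453 and 351) and C1qc (208, 226 and 237) at the ends of both. These lists were highest on the HF array, and their part in the ratios of the endothelial genes was not tested.

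Pericyte genes, which mark the cells around the capillary, were higher in 8 of 10 cases in HF (0.22) and in 6 of 10 in HF + SFC (0.05). Cspg4 (158, 237 and 264) and Notch3 (908, 807 and 897) were the ends in HF, and in HF + SFC against HF they were Cspg4 and Ndufa4l2 (424 and 293). Vascular smooth muscle genes were higher in 5 of 8 cases in HF (0.08), with Tagln (2276 and 3368) highest and Des (31925 and 27999), which fibres also express, lowest. They were higher in 3 of 8 in HF + SFC (-0.12), with Des (27999 and 33372) highest and Cnn1 (310 and 214) lowest. Platelet genes, of interest as platelets also hold VWF, were higher in 4 and lower in 5 of 9 cases in HF (-0.002) and higher in 5 of 9 in HF + SFC (0.14). Of them only Pf4 was above the median signal of genes, with 458, 518 and 592, and the list summed to 1010, 1166 and 1229. The part of these cells in the values of Vwf was not tested.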

How the data were processed

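Per the labels and the methods, material of all animals of a group was pooled and biotinylated cRNA from gastrocnemius was hybridised to an Affymetrix GeneChip mouse array. The deposited values are linear MAS5 intensities made by the authors (version not given in the sources used here) whose mean after trimming was 500.0 on every array. The 3 arrays were grouped by their labels. Of 45101 probe sets, 34945 had 1 gene symbol, 932 had several, 9160 had none and 64 were controls. Symbols were updated by gene ID, matched for 34741 probe sets, through a RefSeq table (GRCm38.p6).

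Log2 ratios came from the deposited intensities with no offset, from the brightest probe set (highest mean log2 signal) of each gene, with 1.5-fold as the threshold of counts. The members and 22 gene lists, written from textbook knowledge and with 231 of 251 genes measured, were chosen with earlier results of these data known. Named genes are the members, fixed partners of theirs, and the highest and lowest ratio of each list among genes above the median signal of genes. No test was run, as each group had 1 array, and the number of arrays limits the precision. Ratios were also computed with all probe sets averaged, with the second brightest probe set, after quantile normalization or centring on array medians, with an offset of 50 or a filter at the array median, after removal of probe sets with a lettered suffix, with a 2-fold threshold and relative to Pecam1. The steps were run on simulated data in which all probe sets of a changed gene moved alike. That run checked the code and not the precision of the ratios. Listed genes without such a probe set were not analysed here. Python 3.11.15, numpy 2.4.6 and pandas 2.3.3 were used.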

Additional observations from a re-analysis of the deposited data

How the results depend on the processing

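Each value rests on 1 array per group, so agreement between alternatives says nothing about the spread between animals. The median log2 ratio of the 10 genes in HF against Control was -0.21 and ranged from -0.31 (suffix probe sets left out, 8 genes) to -0.13 (mean of all probe sets) over the alternatives other than scaling to Pecam1, except for the second brightest probe set, which exists for Cdh5, Flt1, Eng and Ednrb only and gave 0.14. The number of genes at least 1.5-fold lower in HF was 1, and 2 after median centring or relative to Pecam1, and 0 at 2-fold. The number 1.5-fold lower in HF + SFC against Control was 1 (Ednrb, at the threshold) and became 0 with the mean of all probe sets, the second brightest probe set, quantile normalization, an offset of 50, a 2-fold threshold or scaling to Pecam1, while Ednrb itself was at 0.038 on the log2 scale on its second brightest probe set against -0.59. Relative to Pecam1, a scaling chosen after seeing the data, 1 gene (Flt1) reached a 1.5-fold higher value in HF + SFC against HF, where otherwise 0 did. Median centring moved the median of all genes in HF against Control from 0.01 to -0.08, and Cdh5 from 0.04 to -0.05. The ratios of Kdr, Flt1, Tek, Tie1 and Aqp1 kept their sign under each alternative named above that gave them. This held in HF against Control and in HF + SFC against HF. For Kdr, Tek, Tie1 and Aqp1, with 1 probe set each, only quantile normalization and median centring could have changed it. Averaging probe sets, suffix removal and the filter gave back the same value, and an offset cannot change a sign. Scaling to Pecam1 moves every gene by 1 factor and is no check of this. For Flt1, 1440926_at and 1454037_a_at were not used alone, and read 1.04 and 1.25 of Control in HF. In HF + SFC against HF they were at 1.08 and 0.94. Ednrb in HF against Control was at 0.09 on its second brightest probe set against -0.54. The cause of the differences between probe sets was not tested. No paired analysis was possible because each group had 1 sample.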
